A study of Mus musculus with 55 samples.

Results

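Kcnb2, which encodes the voltage-gated potassium channel Kv2.2, and 5 genes of silent subunits that modulate Kv2 channels (Kcng1, Kcns1, Kcns2, Kcns3 and Kcnv1) were described in patched pyramidal neurons from mouse prefrontal cortex. These 6 of the 22800 gene symbols were chosen by name, and partly because earlier results of the same data showed Kcng1 low in both kinds of knockout cell. The knockout values of Kcng1 are therefore a description. The cytosol of each neuron had been drawn into a patch pipette and made into a library of its own, so 1 library is 1 cell. Knockout cells (KO) came from Fmr1-/y mice, hemizygous for a null allele of the X-linked gene of FMRP, an RNA-binding protein whose loss causes fragile X syndrome. There were 6 KO D1 cells (31 and 32 days of age) and 7 KO D2 cells (32 days). The cells labelled as having no knockout, called wild-type here (WT), were 15 D1 cells (28 to 34 days) and 26 D2 cells (29 to 35 days). D1 and D2 are names of dopamine receptor types. The sources used here do not give how the cells were told apart, which animal each came from or the strain, and the recordings named in the study's title were not analysed here. Each group therefore counts as 1 sample: no p-value is given, and every SD is a spread between cells.

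Kv2 channels are delayed rectifiers that open slowly on depolarization and repolarize the soma of cortical pyramidal neurons, above all during repeated firing. A channel is a ring of 4 subunits. Kv2 subunits such as Kv2.2, the product of Kcnb2, can build one alone, whereas the silent subunits of the Kv5, Kv6, Kv8 and Kv9 groups carry current only when they join Kv2 subunits, and they alter those channels: the voltage range of inactivation, the speed of gating or the amount of channel at the surface changes. Kcng1 encodes Kv6.1, Kcns1, Kcns2 and Kcns3 encode Kv9.1, Kv9.2 and Kv9.3, and Kcnv1 encodes Kv8.1.

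The part of the coding sequence in which Kv2 and silent subunits differ by a known landmark was read from the GENCODE vM21 transcripts on the GRCm38 build. Each stretch of 96 bases runs 5′ to 3′ on the coding strand from the potassium selectivity filter (first 12 bases in capitals) to the bend of the inner pore helix (last 9 bases in capitals). At the bend, Kv channels that work alone carry a pair of prolines around 1 other residue. The stretches lie at chr1:15710052-15710147 (plus strand) for Kcnb2, chr2:168262554-168262649 (minus) for Kcng1, chr2:164164767-164164862 (minus) for Kcns1, chr15:34839618-34839713 (plus) for Kcns2, chr12:11091488-11091583 (minus) for Kcns3 and chr15:45109202-45109297 (minus) for Kcnv1.
Kcnb2: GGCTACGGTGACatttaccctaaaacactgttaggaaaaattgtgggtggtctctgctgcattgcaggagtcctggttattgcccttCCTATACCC
Kcng1: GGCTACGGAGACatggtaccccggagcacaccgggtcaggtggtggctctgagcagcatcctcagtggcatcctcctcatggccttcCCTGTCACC
Kcns1: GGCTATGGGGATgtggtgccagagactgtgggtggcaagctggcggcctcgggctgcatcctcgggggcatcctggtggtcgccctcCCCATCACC
Kcns2: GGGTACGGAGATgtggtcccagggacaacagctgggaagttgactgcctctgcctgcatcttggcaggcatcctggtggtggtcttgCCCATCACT
Kcns3: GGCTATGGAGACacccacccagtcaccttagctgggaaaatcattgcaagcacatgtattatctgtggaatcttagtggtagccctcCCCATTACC
Kcnv1: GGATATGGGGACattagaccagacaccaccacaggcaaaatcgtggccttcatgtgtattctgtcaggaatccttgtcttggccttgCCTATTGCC
All 6 stretches carry a proline codon (CC and any base) first in the bend. The last codon of the bend is also one of proline in Kcnb2, and it is not in the 5 silent subunits, which carry ACC, ACT or GCC there. Over the whole stretch the silent subunits shared between 51.0% (Kcng1) and 58.3% (Kcnv1) of their bases with Kcnb2, and the closest pair among the 6 was Kcns1 and Kcns2, with 74%. None of the 6 genes shares exon bases with another annotated gene, so reads of a neighbour on the other strand do not enter their counts.

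The 54 cells labelled as passing quality control held between 260943 and 10673072 counts each. Cells also differed in the number of genes read: 6 of 6 KO D1, 6 of 7 KO D2, 9 of 15 WT D1 and 13 of 26 WT D2 cells had reads of at least 4000 genes (called gene-rich below), and since the WT groups held more cells under that number, results are given over all cells and over gene-rich cells. Counts were scaled to a total of 1000000 in each cell (CPM). Groups were compared by their difference in mean log2(CPM + 1) over cells, and 1 log2 unit was used as the threshold. A gene counted as measured in a comparison when at least 10% of its cells had a read and its mean reached 1 CPM. Fmr1 had no read in any of the 13 KO cells and was read in 8 of 15 WT D1 and 13 of 26 WT D2 cells. All 6 pyramidal markers (such as Slc17a7, the vesicular glutamate transporter) had reads in all 4 groups. The 6 interneuron markers summed to a median of 0 CPM in KO D1 (up to 17), 44.1 in KO D2 (up to 318), 0 in WT D1 (up to 327) and 9.35 in WT D2 cells (up to 832). Of the 6, Gad2, Slc32a1, Pvalb and Vip were at 0 in all KO D1 cells, Vip in all KO D2, Slc32a1 in all WT D1 and Vip in all WT D2 cells.

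Kcng1 (chr2:168260117-168281736, minus strand) was the silent subunit in which KO and WT cells differed by the threshold or more in both kinds over all cells. In KO D1 cells it had 5 reads in 1 of 6 cells, which is 1.70 CPM, and no read in the other 5. In KO D2 cells it had 34 reads in 1 cell (5.95 CPM), 2 reads in another (0.481 CPM) and none in the other 5 of 7. In WT D1 cells it was read in 6 of 15, with a median of 158 CPM among those 6 and a highest value of 403 CPM. In WT D2 cells it was read in 12 of 26, with a median of 189 CPM among those 12 and a highest value of 1195 CPM. The groups overlapped at 0, where many cells of each group lay, but the upper values did not: 15 of the 41 WT cells (5 D1 and 10 D2) lay above the highest KO cell, the lowest of these 15 at 45.3 CPM and their median at 237 CPM, and they came from 7 ages between 28 and 35 days.

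**Figure D1:**
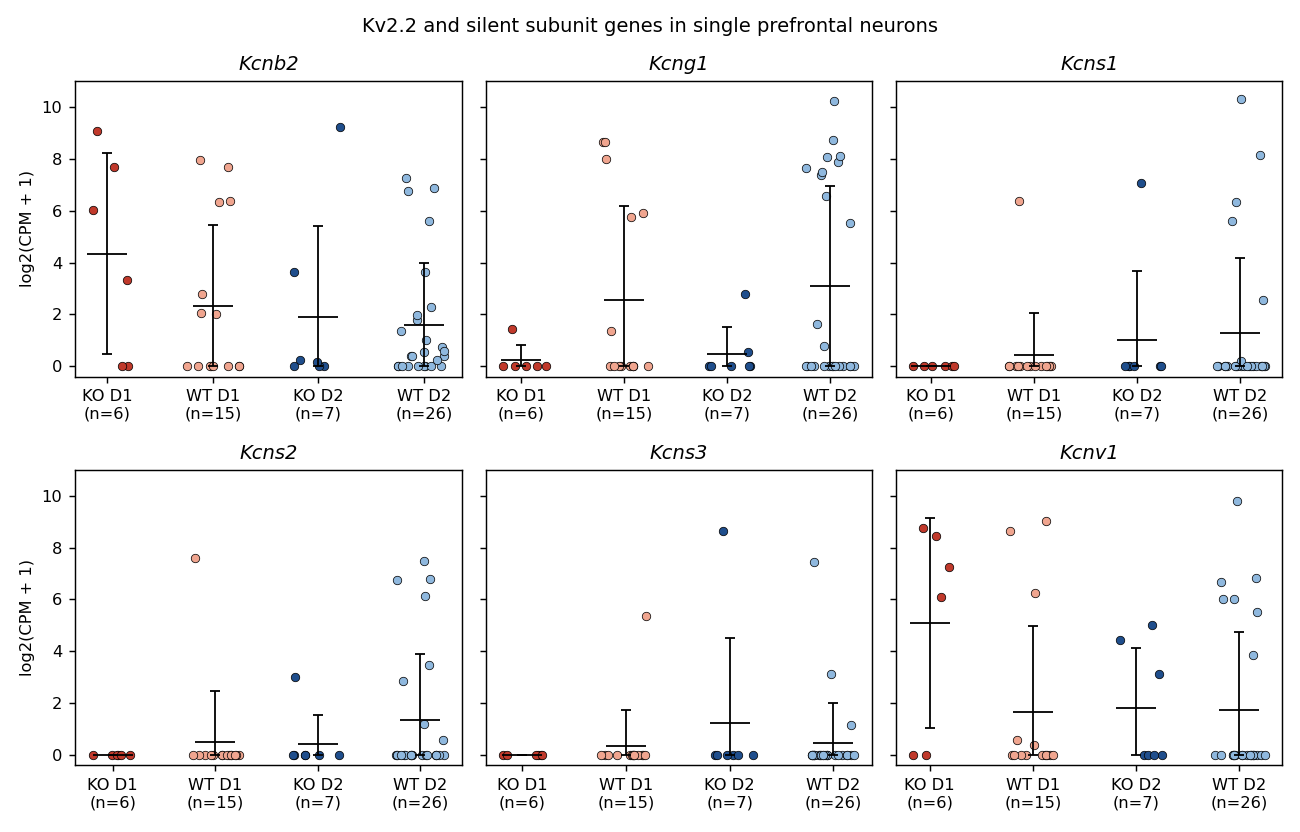
Level of each gene in every cell, as log2(CPM + 1), by group, with KO left of WT within each kind. Each point is 1 cell, the wide bar is the mean and the whiskers are 1 SD between cells, drawn no lower than 0. For Kcng1 no KO cell passed 5.95 CPM while WT cells reached 403 (D1) and 1195 CPM (D2); Kcnv1 was high in 4 of 6 KO D1 cells.

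The mean level of Kcng1 was 0.284 ± 0.695 CPM in KO D1 cells (SD, n = 6 cells) and 78.2 ± 147 CPM in WT D1 cells (n = 15), a difference of -2.32 in mean log2(CPM + 1), where 8.02% of the 10792 genes measured were lower by the threshold. It was 0.919 ± 2.23 CPM in KO D2 cells (n = 7) and 119 ± 250 CPM in WT D2 cells (n = 26), a difference of -2.60, where 6.91% of 11222 were lower. Each SD exceeded its mean. Summed over a group's cells, Kcng1 made up 0.155 CPM in KO D1 (5 reads, exact Poisson interval 0.0503 to 0.361) against 130 CPM in WT D1 (7238 reads), and 0.854 CPM in KO D2 (36 reads, 0.598 to 1.18) against 142 CPM in WT D2 (13600 reads). The summed level was 839-fold lower in KO D1 than in WT D1 and 166-fold lower in KO D2 than in WT D2. These folds rest on single cells: without WT D1 cell 15 the fold was 433, and without KO D1 cell 1, the only one of its group with reads, the level was at least 1271-fold lower (floor of 3 counts). Without KO D2 cell 1, which held 34 of the 36 reads, 2 reads remained and the fold was 2583 (Poisson interval of the 2 reads 715 to 21331); no other single cell moved either fold by over 1.5 times. Intervals and floors cover counting error only, since PCR copies of a molecule are counted as reads. Kcng1 was the member below the threshold in both kinds, which 0.794% of the 10203 genes measured in both comparisons also were; none of the 6 was higher in both, as 21.8% were. As the genes were chosen with this in view, nothing is read from that share.

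Gene-rich cells gave a larger difference. Kcng1 was read in 1 of 6 gene-rich KO D1 cells and 5 of 9 WT D1 cells, and in 2 of 6 gene-rich KO D2 cells and 10 of 13 WT D2 cells. The 95% Clopper-Pearson intervals of these shares were 0.421% to 64.1% in KO D1, 21.2% to 86.3% in WT D1, 4.33% to 77.7% in KO D2 and 46.2% to 95% in WT D2 cells, so within each kind they overlapped. In mean log2(CPM + 1), KO and WT gene-rich cells differed by -3.87 (D1) and -4.69 (D2). Of the genes measured in the same cells, 28.5% were higher and 22.7% lower by the threshold in KO D1 (of 11414), 14.2% higher and 30% lower in KO D2 (of 12132), and 6.98% lower in both kinds (of 10874). Median totals were higher in KO groups: the KO D1 and KO D2 cells had median totals of 4922872.5 and 5712484 counts, above the 2805992 of WT D1 and the 3940766.5 of WT D2 cells.

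**Figure D2:**
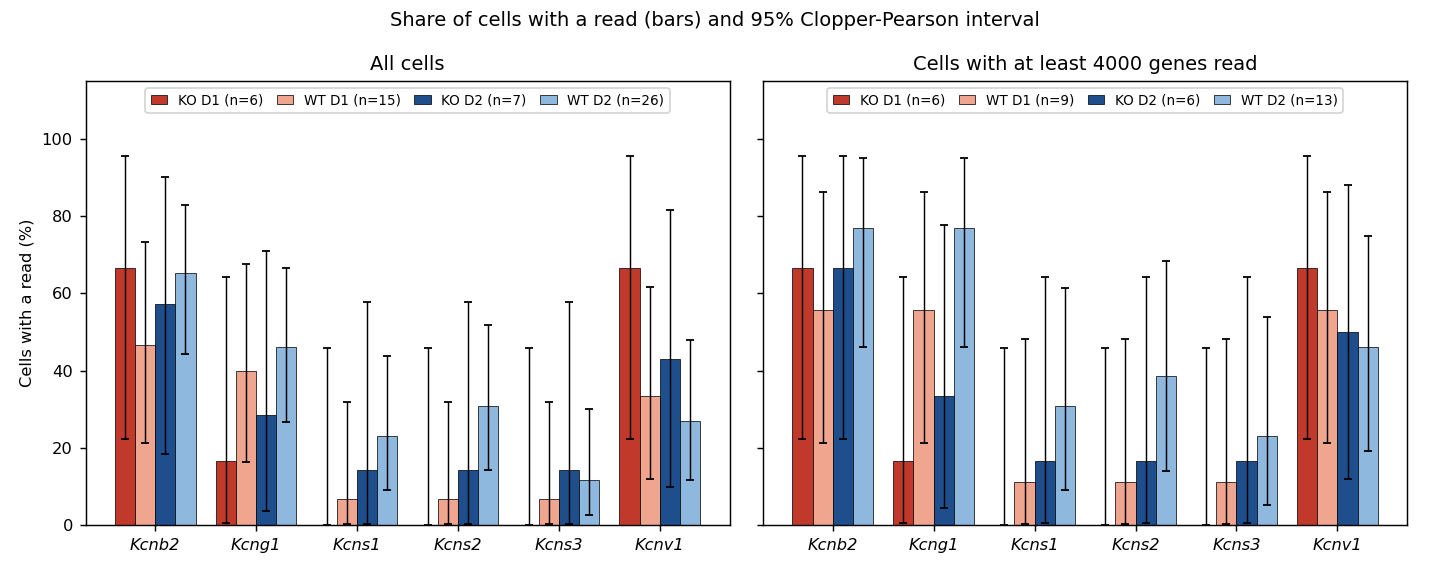
Share of cells with at least 1 read of each gene, over all cells (left) and over cells with reads of at least 4000 genes (right), with KO bars left of the WT bars of the same kind and 95% Clopper-Pearson intervals. Kcng1 was read in 16.7% of KO D1 and 55.6% of WT D1 gene-rich cells, and in 33.3% of KO D2 and 76.9% of WT D2 gene-rich cells; all these intervals are wide.

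Age can be matched only in part. At 31 and 32 days, the ages of the KO cells, there were 3 WT D1 and 5 WT D2 cells. Kcng1 was read in 1 of these 3 WT D1 cells, at 52.5 CPM, and in 3 of the 5 WT D2 cells, up to 1195 CPM. Against these cells alone KO and WT differed by -1.67 (D1) and -4.25 (D2). The cell at 1195 CPM, WT D2 cell 5, was gene-poor, with reads of 2067 genes. Genotype and animal cannot be told apart, since the animals of the cells are not known and all KO cells were taken at these ages.

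Between the kinds of WT cell Kcng1 differed by less than the threshold over all cells (-0.52, D1 minus D2) and by -1.14 over gene-rich cells, where 11.1% of 11741 measured genes were higher and 33.4% lower by the threshold. Reads of it were found at all 5 ages of WT D1 cells. In WT D2 cells it was read in 4 of 6 cells of 29 days, 3 of 7 of 30 days, 1 of 3 of 31 days, 2 of 2 of 32 days, 0 of 2 of 33 days, 1 of 2 of 34 days and 1 of 4 of 35 days. With 2 to 7 cells per age, these shares are too coarse to order the ages.

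Kcnb2 (chr1:15287254-15723750, plus strand), a Kv2 subunit, was higher by the threshold in KO D1 cells and not in KO D2 cells when all cells were used, and in neither kind over gene-rich cells (0.98 in D1 and -0.26 in D2). The KO D1 cells had 531, 205, 63.7 and 9.07 CPM in 4 cells and no read in the other 2. The WT D1 cells had reads in 7 of 15, with a median of 79.4 CPM among those 7 and a highest value of 246 CPM. Both groups thus spanned from 0 to above 200 CPM. The mean was 135 ± 209 CPM in KO D1 and 41.4 ± 79.6 CPM in WT D1 cells, a difference of 2.00 in mean log2(CPM + 1), while 49.6% of the 10792 genes measured were higher by the threshold and the median gene differed by 0.98. KO D1 cell 5 held 77.6% of the group's Kcnb2 reads, and without it the difference was 1.06. Against the 3 WT D1 cells of 31 days the sign turned, to -0.33.

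The KO D2 cells had Kcnb2 at 603 CPM in cell 7, at 11.5 CPM in cell 4, at 1 read each in 2 further cells and at 0 in the other 3. Cell 7 alone held 97.9% of the reads. The WT D2 cells had reads of Kcnb2 in 17 of 26, but in 12 of these 17 the count was between 1 and 9, and only 5 cells had 10 reads or more; the highest was 152 CPM. The mean was 87.8 ± 227 CPM in KO D2 and 17.2 ± 41.3 CPM in WT D2 cells, with a difference in mean log2(CPM + 1) of 0.29, which became -0.94 without KO D2 cell 7 and 1.82 against the 5 WT D2 cells of 31 and 32 days. Thinned to 260943 counts per cell, the lowest total of any cell, reads of Kcnb2 would be expected in 3.91 of 6 KO D1, 2.04 of 7 KO D2, 6.05 of 15 WT D1 and 8.32 of 26 WT D2 cells; reads were found in 4, 4, 7 and 17 of these cells. By age, Kcnb2 was read in 6 of 6 WT D2 cells of 29 days (up to 152 CPM), 3 of 7 of 30 days, 0 of 3 of 31 days, 1 of 2 of 32 days, 1 of 2 of 33 days, 2 of 2 of 34 days and 4 of 4 of 35 days. The cells of 29 days had reads of a median of 7292 genes and those of 30 and 31 days of 2514 and 2290 genes, and the part of this in the detection of Kcnb2 was not tested.

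Kcnv1 (chr15:45106284-45114920, minus strand) encodes Kv8.1, a subunit known to reduce Kv2 currents when co-expressed in heterologous cells. Of the 6 genes it had the highest mean level in KO D1 cells. It had 432, 348, 150 and 67 CPM in 4 of the 6 KO D1 cells and no read in the other 2. In WT D1 cells it was read in 5 of 15, at 518, 401 and 75.3 CPM and at 1 read each in 2 cells. The WT D1 cell at 518 CPM thus lay above every KO D1 cell. Those at 401 and 75.3 CPM lay in the range of the KO D1 cells with reads. The shares of cells with a read were 66.7% in KO D1 (95% interval 22.3% to 95.7%) and 33.3% in WT D1 cells (11.8% to 61.6%), intervals that overlapped. Over gene-rich cells the shares were 66.7% and 55.6%. The mean was 166 ± 184 CPM in KO D1 and 66.3 ± 162 CPM in WT D1 cells, and the difference in mean log2(CPM + 1) was 3.43 over all cells and 2.32 over gene-rich cells.

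In KO D2 cells Kcnv1 was low: 31.5, 20.8 and 7.66 CPM in 3 of 7 cells, and 0 in the other 4. In WT D2 cells it was read in 7 of 26, from 13.7 to 881 CPM. The difference was 0.08 on the log2 scale (-0.59 over gene-rich cells) although the mean was 8.57 ± 12.7 CPM in KO D2 and 49.2 ± 173 CPM in WT D2 cells; the share of cells with a read was 42.9% in KO D2 and 26.9% in WT D2. In cells with reads the median was 20.8 CPM in KO D2 (7.66 to 31.5) and 64.1 CPM in WT D2 cells (13.7 to 881), ranges that overlapped. Between the KO groups Kcnb2 differed by 2.45 (D1 minus D2), and by 1.51 without KO D1 cell 5. The knockout differences in D1 and D2 cells were 3.35 apart for Kcnv1, 1.72 for Kcnb2 and 0.28 for Kcng1 (D1 minus D2); these are values with no test. Kcnv1 differed between the KO groups by 3.29 (D1 minus D2) and the summed level was 14.2-fold higher in KO D1 (163 CPM) than in KO D2 (11.5 CPM). Between the WT groups it differed by -0.06.

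The 4 KO D1 cells with Kcnv1 were the same 4 that had Kcnb2, and KO D1 cells 2 and 3 had neither. Reads of both genes were found in 4 of 6 KO D1, 2 of 7 KO D2, 4 of 15 WT D1 and 5 of 26 WT D2 cells. Of the 19 cells with Kcnv1, 78.9% also had Kcnb2, and of the 32 cells with Kcnb2, 46.9% had Kcnv1. The Spearman correlation of their levels was 0.38 over the 54 cells and 0.45 over the 34 gene-rich cells. It is a description only, as cells share depth and the number of genes read: Kcnv1 correlated with the number of genes read with 0.40 over all cells and 0.02 over gene-rich cells, and Kcnb2 with 0.32 and 0.04.

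**Figure D3:**
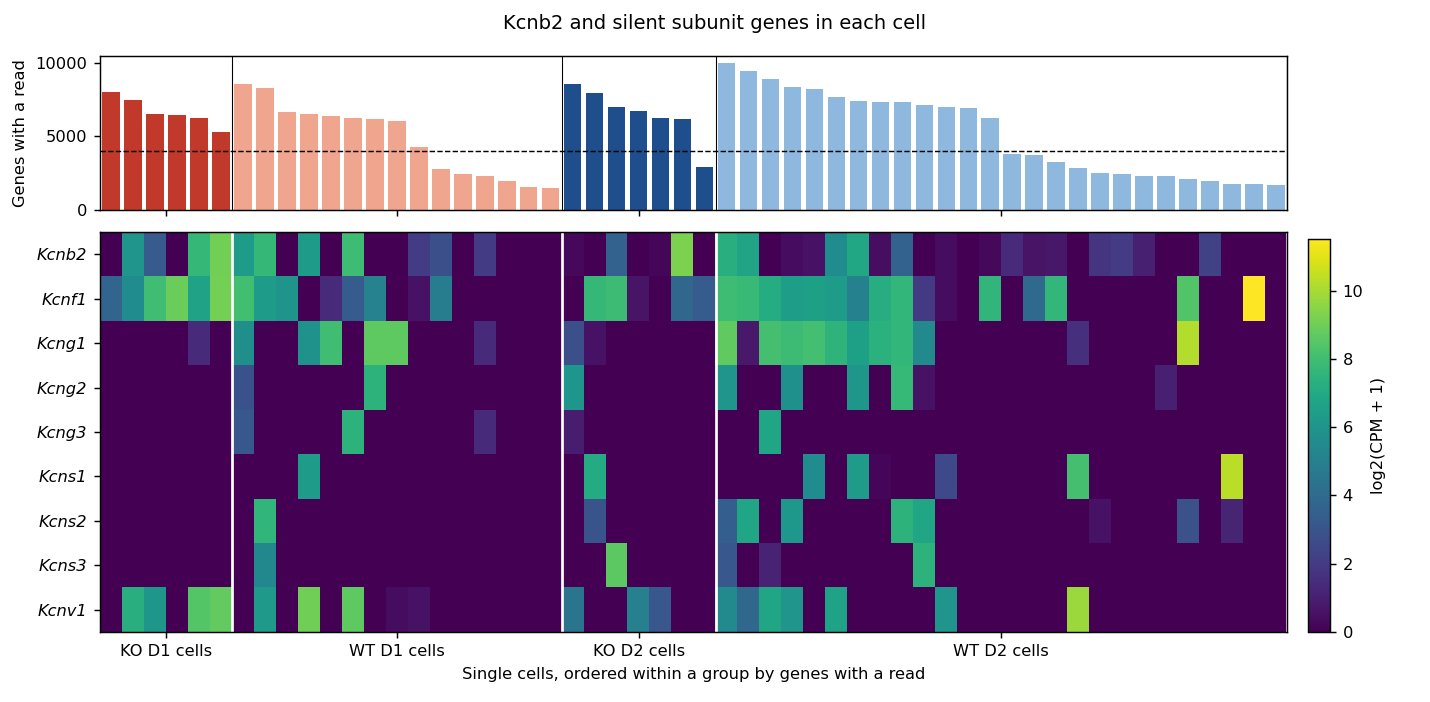
Number of genes with a read in each cell (top, dashed line at 4000 genes) and log2(CPM + 1) of Kcnb2 and the 8 silent subunit genes with any read (bottom), with cells as columns in the groups KO D1, WT D1, KO D2 and WT D2. Kcng1 is near 0 across both KO groups, while most gene-rich WT D2 cells carry it; the 6 KO D1 cells all carry Kcnf1.

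The 3 Kv9 genes were read in few cells, and mostly in WT D2 cells. None of the 6 KO D1 cells had a read of Kcns1, Kcns2 or Kcns3, and 0 of 6 cells allows a share of up to 50% by the rule of 3 counts and 45.9% by the Clopper-Pearson interval. Each of the 3 was read in 1 of 7 KO D2 cells and 1 of 15 WT D1 cells. With 1 cell carrying all reads of a group, group means of these genes are the value of that cell divided by the number of cells.

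Kcns1 (chr2:164163619-164171113, minus strand) encodes Kv9.1, which in rats is found in sensory neurons and whose knockdown there raises their excitability. It was read at 134 CPM in KO D2 cell 3 and at 82.4 CPM in WT D1 cell 13. In WT D2 cells it was read in 6 of 26, from 0.164 to 1276 CPM with a median of 63.9 CPM among those 6. Its difference was -0.43 in D1 cells, where it was not measured by the rule, and -0.26 in D2 cells (-1.28 without KO D2 cell 3, and 0.05 over gene-rich cells). Between WT D1 and WT D2 cells it differed by -0.85, and by -1.28 without WT D1 cell 13. The cell at 1276 CPM, WT D2 cell 2, was gene-poor, with reads of 1789 genes, and had no read of the 6 interneuron markers. These markers summed to 364 CPM in WT D2 cell 8 (283 CPM of Kcns1), 65.6 in WT D2 cell 21 and 33.7 in WT D2 cell 14. In the other cells with Kcns1 they summed to between 0.398 and 2.17 CPM. The part of interneuron RNA in the reads of Kcns1 was not tested.

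Kcns2 (chr15:34837355-34843407, plus strand), which encodes Kv9.2, was the Kv9 gene found in the most cells. It was read at 6.98 CPM in KO D2 cell 3, the cell that also carried Kcns1, and at 192 CPM in WT D1 cell 12. In WT D2 cells it was read in 8 of 26, with 6 of them at 10 reads or more and a highest value of 176 CPM. The mean was 0.997 ± 2.64 CPM in KO D2 and 18.5 ± 45.1 CPM in WT D2 cells, a difference of -0.93, which was -1.36 without KO D2 cell 3 and -1.86 over gene-rich cells, in which, as above, 30% of all measured genes were lower by the threshold in KO. Between WT D1 and WT D2 cells it differed by -0.85, by -1.36 without WT D1 cell 12 and by -1.51 over gene-rich cells, past the threshold as were 33.4% of the genes measured there. At the ages of the KO cells, 4 of 5 WT D2 cells had reads of Kcns2.

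Kcns3 (chr12:11090202-11151056, minus strand) encodes Kv9.3, known in human prefrontal cortex mainly from parvalbumin interneurons. It was read at 396 CPM in KO D2 cell 4, at 40.5 CPM in WT D1 cell 12 and in 3 of 26 WT D2 cells, at 175, 7.76 and 1.22 CPM. Its difference was 0.78 in D2 cells and -0.45 without KO D2 cell 4. In that cell, Gad1 and Gad2, the enzymes of GABA synthesis, had 29.8 and 79.6 CPM and Pvalb had no read, while the 6 pyramidal markers summed to 1069 CPM. WT D2 cell 3, at 175 CPM, had 24.9 CPM of Pvalb and no read of Gad1 or Gad2. The part of interneuron RNA in the reads of Kcns3 was not tested.

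Counted together, 3 of the 6 genes were measured in KO D1 against WT D1 cells, and 2 were higher and 1 lower by at least 1 log2 unit. Of all 10792 measured genes 49.6% were higher and 8.02% lower in this comparison. All 6 were measured in KO D2 against WT D2 cells, where 0 were higher and 1 (Kcng1) was lower, against 36.4% and 6.91% of 11222 genes. In WT D1 against WT D2 cells 5 were measured and none passed the threshold in either direction, against 9.21% higher and 13.2% lower of 11059 genes. In KO D1 against KO D2 cells 2 were measured, Kcnb2 and Kcnv1, and both were higher in KO D1, against 32.9% higher and 21% lower of 10990 genes; Kcns1 (-1.01) and Kcns3 (-1.23), without a read in KO D1, were past the threshold but not measured by the rule. Over gene-rich cells 1 of 3 measured genes was higher (Kcnv1) and 1 lower (Kcng1) for KO D1 minus WT D1, against 28.5% and 22.7% of 11414 genes. For KO D2 minus WT D2 the counts, higher and lower, were 0 and 2 of 6 (Kcng1 and Kcns2), against 14.2% and 30% of 12132. For WT D1 minus WT D2 they were 0 and 2 of 6 (Kcng1 and Kcns2), against 11.1% and 33.4% of 11741. For KO D1 minus KO D2 they were 2 and 0 of 2, against 27.5% and 26.2% of 10966. The median difference of the 6 genes over all cells was -0.39 for KO D1 minus WT D1, where that of all measured genes was 0.98. For KO D2 minus WT D2 these medians were -0.09 and 0.56, for WT D1 minus WT D2 -0.31 and -0.14, and for KO D1 minus KO D2 -0.33 and 0.29. Except for KO D2 minus WT D2, the median of the 6 takes in genes not measured by the rule, so these medians are not like for like. Not measured in KO D1 minus WT D1 were Kcns1 (-0.43), Kcns2 (-0.51) and Kcns3 (-0.36). The measured Kcnb2, Kcnv1 and Kcng1 differed there by 2.00, 3.43 and -2.32. In KO D1 minus KO D2 the measured Kcnb2 and Kcnv1 differed by 2.45 and 3.29. Over gene-rich cells the shift of all genes towards KO was smaller in D1 cells (0.14) and turned towards WT in D2 cells (-0.39). Set against the shift over all cells, Kcng1 was 3.30 lower in D1 and 3.16 lower in D2 cells than the median gene.

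**Figure D4:**
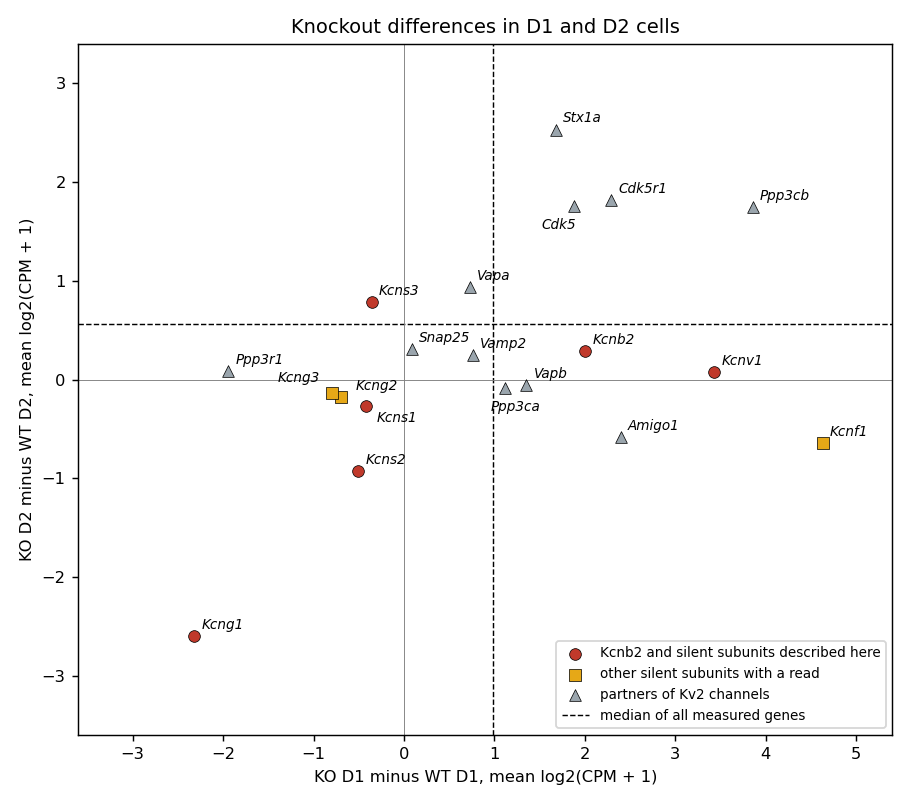
Knockout difference in mean log2(CPM + 1) in D1 cells (horizontal axis, KO D1 minus WT D1) and in D2 cells (vertical axis, KO D2 minus WT D2) for the 6 genes (circles), the other silent subunit genes with a read (squares) and partners of Kv2 channels (triangles). Dashed lines mark the median of all measured genes (0.98 and 0.56); Kcng1 lies at -2.32 and -2.60, and Kcnf1 and Kcnv1 lie at 4.63 and 3.43 in D1 cells.

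Levels of different genes were compared per kilobase of merged exon. In KO D1 cells the order was Kcnv1 (36.2 ± 40.1 CPM per kilobase), Kcnb2 (8.89 ± 13.8) and Kcng1 (0.0629 ± 0.154), with the 3 Kv9 genes at 0. In KO D2 cells it was Kcns3 (17.9 ± 47.3), Kcns1 (7.07 ± 18.7), Kcnb2 (5.79 ± 15.0), Kcnv1 (1.87 ± 2.77), Kcng1 (0.204 ± 0.494) and Kcns2 (0.179 ± 0.472). Each of the first 2 places rests on 1 cell, KO D2 cell 4 for Kcns3 and cell 3 for Kcns1. In WT D1 cells Kcng1 came first (17.4 ± 32.6), then Kcnv1 (14.5 ± 35.4), Kcnb2 (2.73 ± 5.25), Kcns2 (2.29 ± 8.86), Kcns1 (2.03 ± 7.85) and Kcns3 (0.853 ± 3.30). In WT D2 cells Kcng1 also came first (26.4 ± 55.3), then Kcns1 (24 ± 93.5), Kcnv1 (10.73 ± 37.7), Kcns2 (3.32 ± 8.08), Kcns3 (2.24 ± 10.8) and Kcnb2 (1.14 ± 2.72). Every SD above 0 exceeded its mean, so that no neighbours in these orders differed beyond their spread.

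The other 5 silent subunit genes, Kcnf1, Kcng2, Kcng3, Kcng4 and Kcnv2, give the setting. Kcnf1, which encodes Kv5.1, was read in 6 of 6 KO D1 and 8 of 15 WT D1 cells and differed by 4.63; it was read in 5 of 7 KO D2 and 16 of 26 WT D2 cells and differed by -0.64. Over gene-rich cells Kcnf1 differed by 3.58 in D1 and by -2.20 in D2 cells, the second past the threshold as were 30% of all genes measured there. Its mean in KO D1 cells, 50.3 CPM per kilobase, was above that of each of the 6 genes. Kcng2 was read in 1 KO D2, 2 WT D1 and 6 WT D2 cells, and Kcng3 in 1 KO D2, 3 WT D1 and 1 WT D2 cell. Kcng2 shares 272 exon bases with a gene on the other strand, and the sources used here do not state whether counting used strand. Kcng4 and Kcnv2 had no read in any cell.

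Kcnb2 is a subunit that silent subunits can join, and the cells were counted by whether they had reads of both. Of the 54 cells, 28 had reads of Kcnb2 and of a silent subunit (any of 10 genes), 16 had a silent subunit without Kcnb2, 4 had Kcnb2 alone and 6 had neither. Both were found in 4 of 6 KO D1, 4 of 7 KO D2, 7 of 15 WT D1 and 13 of 26 WT D2 cells. A silent subunit was read in 6 of 6 KO D1, 7 of 7 KO D2, 11 of 15 WT D1 and 20 of 26 WT D2 cells. In the KO D1, KO D2 and WT D1 groups every cell with Kcnb2 had a silent subunit, and the 4 cells with Kcnb2 alone were WT D2 cells. For the KO groups this had to hold, since every KO cell had a silent subunit with or without Kcnb2. Of the 16 cells with at least 10 reads of Kcng1, 6 had at least 10 of Kcnb2; for Kcnv1 these numbers were 17 and 10, for Kcns2 8 and 4, for Kcns3 4 and 3, and for Kcns1 7 and 2. A cell without a read may still hold the transcript, since the depth of a patched cell does not capture every one.

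A cell had reads of a median of 2 of the 6 genes in KO D1 (highest 3), 2 in KO D2 (highest 3), 1 in WT D1 (highest 4) and 2 in WT D2 cells (highest 5). Over gene-rich cells the medians were 2, 2, 2 and 3 in the same groups. The silent subunits overlapped with each other unevenly. Of the 9 cells with Kcng2 (Kv6.2), 8 also had Kcng1, which is 88.9% of the Kcng2 cells and 38.1% of the 21 Kcng1 cells, and their levels correlated with a Spearman coefficient of 0.49 over 54 cells and 0.52 over gene-rich cells. Of these 8 cells, 1 was a KO D2 cell, 2 were WT D1 and 5 were WT D2 cells. Kcns1 and Kcns3 shared no cell among 8 and 5, while Kcns2 and Kcns3 shared 3. Counts of this size move with single cells.

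The genes with the pattern most like each member were taken by the Spearman correlation of CPM over the 54 cells among 10843 genes. For Kcng1 they were Rtn4rl2 (0.65), a Nogo receptor homologue, Dapk3 (0.64), a protein kinase, and Ybx3 (0.63), a nucleic acid binding protein, and over gene-rich cells their correlations were 0.61, 0.52 and 0.44. For Kcnb2 they were Homer2 (0.63), a postsynaptic scaffold protein, Rbm25 (0.61), a splicing factor, and Rnpc3 (0.57), a protein of the minor spliceosome. For Kcnv1 they were Tenm1 (0.70, and 0.74 over gene-rich cells), a teneurin adhesion protein, Rabl3 (0.62) and Utp18 (0.61). For Kcns2, read in 10 cells, they were Ccdc82 (0.64), Sh3bp5l (0.59) and Cat (0.58), the gene of catalase. Kcns1 and Kcns3 were read in fewer than 10 cells and were not ranked. The level of Kcng1 also went with the number of genes read (0.46 over all and 0.33 over gene-rich cells) with the summed pyramidal tract markers (0.38 and 0.17) and with the summed intratelencephalic markers (0.26 and 0.39).

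Of 11 partners of Kv2 channels (the auxiliary subunit Amigo1, the endoplasmic reticulum anchors Vapa and Vapb, the release proteins Stx1a, Snap25 and Vamp2, the calcineurin subunits and Cdk5 with its activator), all were measured in each comparison. In KO D1 against WT D1 cells 7 were higher and 1 lower by the threshold, against 49.6% and 8.02% of all measured genes, the largest differences being those of Ppp3cb (3.85) and Amigo1 (2.40). In KO D2 against WT D2 cells 4 were higher and 0 lower, against 36.4% and 6.91%, led by Stx1a (2.53) and Cdk5r1 (1.81). In WT D1 against WT D2 cells 0 were higher and 1 lower, against 9.21% and 13.2%, with Amigo1 at -1.05 and Ppp3ca at -0.85. In KO D1 against KO D2 cells 3 were higher and 1 lower, against 32.9% and 21%, led by Ppp3cb (2.15) and Amigo1 (1.93). Over gene-rich cells 3 were higher and 1 lower for KO D1 minus WT D1 (Ppp3cb 1.68, Amigo1 1.17), against 28.5% and 22.7% of all measured genes. For KO D2 minus WT D2 these counts were 1 and 1, against 14.2% and 30%. For WT D1 minus WT D2 they were 1 and 2, against 11.1% and 33.4%. For KO D1 minus KO D2 they were 2 and 1, against 27.5% and 26.2%. In KO D2 against WT D2 gene-rich cells Stx1a differed by 0.13, Cdk5r1 by 0.88 and Amigo1 by -1.91. The median difference of the 11 was 1.35 for KO D1 minus WT D1, 0.31 for KO D2 minus WT D2, -0.26 for WT D1 minus WT D2 and -0.05 for KO D1 minus KO D2. Amigo1 differed by -0.58 for KO D2 minus WT D2; these comparisons share groups of cells.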

How the data were processed

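Per the labels' protocols, the cytosol of 1 neuron gave 1 Nextera XT library of total RNA. The submitters' processing notes name Trimmomatic, STAR, featureCounts and GRCm38; the sources used here give no versions, settings or strand. The authors deposited whole-number read counts per gene, for 22800 symbols and, in another file, 22880 Ensembl identifiers. Their deposited normalized signal (14067 symbols) equals the counts of a cell times a constant of that cell, from 0.373 to 51.5, and served as an alternative. Each deposited file held 2 columns that matched no sample label and were not used. Not every gene of the family is reported here. Of 55 cells, 1 KO D1 cell failed quality control and was left out.

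CPM used each cell's total over genes, and group differences were taken on log2(CPM + 1). Shares carry exact Clopper-Pearson intervals and sums exact Poisson intervals (95%); a group without reads has a floor of 3 counts over its summed total. The genes described and all gene lists were chosen with earlier results of these data known. The text names all 6 genes, the other silent subunit genes where measured, the 2 partners of largest difference per comparison and the 3 genes most like each gene read in at least 10 cells. Alternatives changed the pseudocount, the library size (TMM, from edgeR 4.0.16 in R 4.3.3, or without mitochondrial genes and Rn18s-rs5), the file, low counts, the cells by genes read, total or age, and single cells. Positions and sequences came from GENCODE vM21 (GRCm38). Python 3.11.15, numpy 2.4.6, pandas 2.3.3, scipy 1.17.1 and matplotlib 3.10.9 were used. The computation of differences was checked on simulated counts.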

Additional observations from a re-analysis of the deposited data

Results flagged for a closer look

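Each gene was examined in the KO groups of 6 and 7 cells for a single cell far from the others of its group. This was done on the log2(CPM + 1) scale in 12 combinations of gene and group. Kcns1, Kcns2 and Kcns3 had no read in any KO D1 cell, so these combinations could not be flagged. In 6 combinations the highest cell stood apart. Kcng1 was at 1.70 CPM in KO D1 cell 1 and at 5.95 CPM in KO D2 cell 1, with the other cells at or near 0. Kcnb2 was at 603 CPM in KO D2 cell 7. Kcns1 was at 134 CPM and Kcns2 at 6.98 CPM in KO D2 cell 3, and Kcns3 at 396 CPM in KO D2 cell 4, each the only cell of its group with a read. All these cells were gene-rich, with reads of 6194 to 8574 genes. Where most cells of a group have no read, any cell with reads stands apart by this measure. The usual chance rate of about 1 in 20 therefore does not apply, and the 6 of 12 are not read as an excess.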

How the results depend on the processing

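The SD between cells of single-gene differences ranged from 0.84 to 3.79 log2 units, so a move of less than 1 SD can still cross the threshold. Of 534 recomputed differences of single genes, 521 moved by less than 1 SD between cells and 13 by more. The sign turned in 37, of which 36 were of differences under the threshold (19 of them Kcnv1 between the WT groups, where the difference was -0.06) and 1 was of a difference past it (Kcnb2 in D1 cells against WT cells of 31 and 32 days only, -0.33). In KO D2 minus WT D2 the sign turned under 5 of 19 settings for Kcnb2, 6 for Kcnv1, 2 for Kcns1 and 2 for Kcns3. The threshold was lost under 4 settings and reached under 39. The Kcng1 difference kept its sign and stayed past the threshold under all 18 settings in D1 and all 19 in D2 cells, from -1.37 and -1.65 with a pseudocount of 10 to -9.71 and -7.38 as the log2 ratio of summed levels. Kcng1 was chosen with its low KO values known, so nothing is read from this. Without each KO cell in turn the difference ranged from -2.56 to -2.27 in D1 and from -2.99 to -2.52 in D2 cells. Kcng1 was read in only 1 of 6 KO D1 and 2 of 7 KO D2 cells, so leaving out a KO cell could hardly move it. This narrow range is therefore no sign of stability, and no WT cell was left out singly from this difference. As a log2 ratio of summed levels, with a floor of 3 counts for groups without reads, the median of the 6 genes was -5.35 for KO D1 minus WT D1 and -2.68 for KO D1 minus KO D2. Leaving out in turn each cell of the group named first in a difference (the second group stayed whole), the median was -0.39 without any 1 of the 6 KO D1 cells (KO D1 minus WT D1) and ranged from -0.48 to 0.14 (KO D2 minus WT D2), -0.67 to -0.20 (WT D1 minus WT D2) and -0.45 to -0.31 (KO D1 minus KO D2). The -0.39 is set by Kcns1 and Kcns3, which had no read in any KO D1 cell. Leaving out a KO D1 cell therefore did not move it, and its constancy is no sign of stability. Counts of all genes past the threshold depended on the choice of cells: in gene-rich cells alone 3251 were higher and 2594 lower in KO D1 than in WT D1, 1722 higher and 3640 lower in KO D2 than in WT D2, and 3918 lower in WT D1 than in WT D2. At a threshold of 2 log2 units the counts, higher and lower, were 2980 and 145 (KO D1 minus WT D1), 1430 and 71 (KO D2 minus WT D2), 112 and 147 (WT D1 minus WT D2) and 1666 and 747 (KO D1 minus KO D2); fewer genes pass a higher threshold by construction. Of 72 recomputed shares of cells 3 left the interval of the main share: Kcnb2 in WT D2 cells (32.0% after thinning, 34.6% with at least 4 reads) and Kcng1 in WT D2 cells (76.9% in gene-rich cells). Setting counts of 1 to 9 to 0 and leaving single cells out of the summed Kcng1 folds were chosen after seeing the data. No paired analysis was possible because no animal is named for any cell and replicate numbers were given in accession order. The small KO groups, the unknown animals and reads lost in patching limit these data: a gene without a read in a cell is not shown to be absent from it.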

Other observations

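The 1 KO D1 cell that failed quality control, with 950010 counts, reads of 995 genes and an age of 31 days, had 0 reads of the 6 genes and 0 of the other 5 silent subunit genes.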
